A study of Mus musculus with 20 samples.

Results

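Among 335858 merged chromatin regions, 2461 were accessible in mouse embryonic fibroblasts (MEFs) and in mouse embryonic stem cells (ESCs) but had a peak in at most 2 of the 16 libraries of a time course in which MEFs were driven towards induced pluripotent stem cells. Peaks of the 20 libraries were joined into regions wherever they shared 1 bp or more, and a library with a peak inside a region was counted as open there. The members were open in the MEF library and in all 3 ESC libraries, and they made up 7.85% of the 31355 regions shared by those 4 libraries. The peak calls of these 20 libraries chose the members, so their openness and the strength of their peaks are given as a description, with no test.

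ATAC-seq, in which the Tn5 transposase inserts adapters into open DNA, was the assay. The MEFs carried an Oct4-GFP reporter and were transduced with retroviruses for Oct4 plus either native Nanog (the Nanog path) or NanogN70 (the NanogN70 path). NanogN70, which the study calls NanogBiD, is NANOG with a stretch of SS18 at its N-terminus that binds BRG1, both of them proteins of the BAF remodelling complex. Each path was sampled on 8 days, from day 0 by way of days 1, 3, 5, 7, 8 and 10 to day 12, with 1 library a day, and day 0 cells had already received both rounds of virus. Cells were kept in iCD3 medium and then in N2B27 with 2i and LIF. The study's methods place this switch after 7 days or at a chosen time point. The ESCs, from mice with the same reporter, were kept in N2B27 with 2i and LIF. The MEF library was untransduced and had no replicate. The 3 ESC libraries carry ESC in their titles but MEF in their source fields, and were grouped by title. Of 5 promoters of pluripotency genes checked, Zfp42 and Dppa5a had a peak in all 3 ESC libraries and none in MEF, Nanog and Tdgf1 had one in all 4 libraries, and Pou5f1 had one in MEF and in ESC replicates 1 and 3 but not 2. All 5 fibroblast promoters checked had a peak in MEF and in the ESC libraries alike, so 2 of these 10 promoters told the labels apart.

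Promoters of widely used genes are open in most cell types, so 2 unrelated cell types share many accessible regions there. Distal enhancers are more often open in particular cell types, where transcription factors keep nucleosomes off short recognition sequences. TEAD proteins, the DNA-binding partners of YAP and TAZ, and AP-1 act at many fibroblast enhancers, OCT4, SOX2 and NANOG at those of ESCs, and CTCF at the borders of chromatin loops in both.

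The sequence around the MEF summit is shown for 5 of the members with the strongest peaks, by the lowest of their 4 peak ranks, because these are the members whose openness in both end states rested least on weak peaks. They are named by the protein-coding gene that they overlap or, where they overlap none, by the gene with the nearest start site. On GRCm38 (mm10), plus strand, the sequences span chr13:25640041-25640241 (intergenic, 370.1 kb from Nrsn1), chr2:47368452-47368652 (intergenic, 1446 kb from Acvr2a), chr8:67930937-67931137 (intron of Psd3), chr3:159847642-159847842 (intron of Wls) and chr11:6773498-6773698 (intergenic, 63.5 kb from the predicted gene Gm11983). Capitals mark matches on either strand to the searched consensus words, of which GGAATG stands for TEAD and CCACCC for KLF and SP factors. TGANTCA stands for AP-1 and TGACGTCA for CREB, and neither occurs in these 5 sequences. Of all 16 such sequences that could be printed among the 20 strongest members, 6 held a TEAD word, 6 an AP-1 word and 0 the CTCF consensus.
Nrsn1: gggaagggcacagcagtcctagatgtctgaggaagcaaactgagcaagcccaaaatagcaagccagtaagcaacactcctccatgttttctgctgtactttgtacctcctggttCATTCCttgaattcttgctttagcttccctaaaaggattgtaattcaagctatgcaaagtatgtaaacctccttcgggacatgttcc
Acvr2a: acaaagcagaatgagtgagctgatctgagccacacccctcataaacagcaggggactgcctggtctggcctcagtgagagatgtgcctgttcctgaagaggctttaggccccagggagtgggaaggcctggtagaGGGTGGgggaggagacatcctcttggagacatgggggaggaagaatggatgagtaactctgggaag
Psd3: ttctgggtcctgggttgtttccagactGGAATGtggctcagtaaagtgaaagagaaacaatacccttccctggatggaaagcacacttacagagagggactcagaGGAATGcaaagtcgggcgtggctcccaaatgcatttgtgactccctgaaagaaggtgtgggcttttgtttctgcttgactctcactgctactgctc
Wls: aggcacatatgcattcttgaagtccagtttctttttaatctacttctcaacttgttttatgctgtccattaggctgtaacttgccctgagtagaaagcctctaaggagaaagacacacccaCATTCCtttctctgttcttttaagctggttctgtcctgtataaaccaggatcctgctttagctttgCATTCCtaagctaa
Gm11983: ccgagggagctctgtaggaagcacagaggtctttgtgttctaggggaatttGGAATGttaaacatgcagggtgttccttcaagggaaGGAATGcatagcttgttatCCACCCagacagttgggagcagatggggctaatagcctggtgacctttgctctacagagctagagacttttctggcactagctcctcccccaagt
The TEAD word was present once in the sequence named for Nrsn1 and in 2 copies each in those named for Psd3, Wls and Gm11983. A match is a run of letters and not evidence that a factor bound there.

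Of the members, 898 (36.5%) had a peak in none of the 16 time-course libraries, 820 (33.3%) in 1 and 743 (30.2%) in 2. Just outside the limit, 769 shared regions had a peak in exactly 3 libraries. The counts thus ran on without a step across the limit, and 14217 shared regions (45.3%) were open in all 16 libraries. Of the 32100 regions open in all 3 ESC libraries and in at most 2 time-course libraries, 7.67% were also open in MEF. Of the 58220 regions open in MEF and in at most 2 time-course libraries, 4.23% were also open in all 3 ESC libraries. Of all 114242 regions open in MEF, 31355 were open in all 3 ESC libraries. Both shares were higher where more time-course libraries were open. With 0, 2 and 16 open, 3.92%, 24.2% and 99.8% of the ESC regions were open in MEF. For the MEF regions open in all 3 ESC libraries the shares were 2.54%, 7.65% and 95.9%. With each library cut to its 44126 highest-scoring peaks, 228 regions met the same rule, 1.48% of the shared regions.

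**Figure D1:**
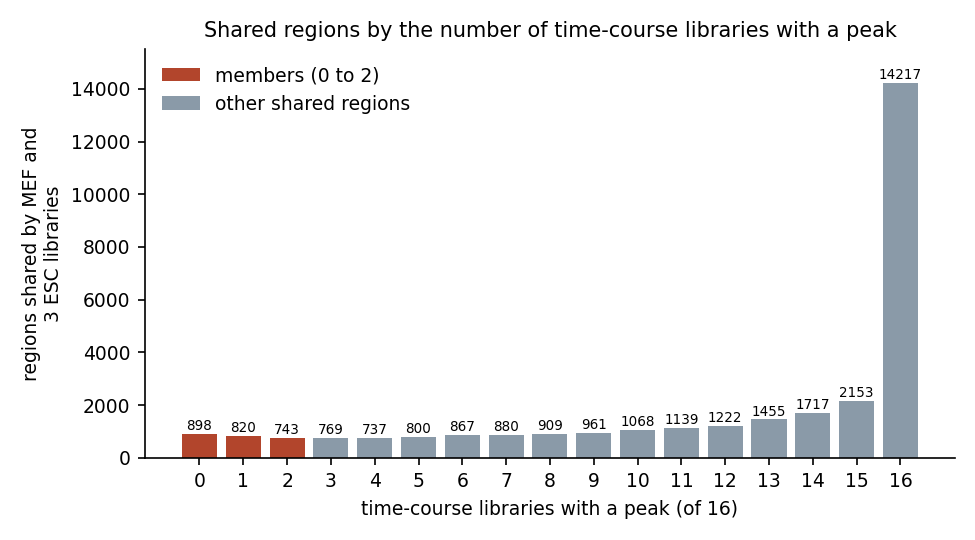
Regions shared by MEF and the 3 ESC libraries (y axis, number of regions) by the number of the 16 time-course libraries with a peak (x axis). Members are the 3 red bars, of 898, 820 and 743 regions, and the bar at 16 holds 14217.

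Members had weak peaks, above all in MEF. The rank of a peak is the percentile of its score among all open regions of its library, and the deposited score is a p-value of MACS as a base-10 logarithm, multiplied by minus 10. The median rank of members was 28.4 in MEF, 54.3 in ESC replicate 1, 57.5 in ESC replicate 2 and 48.4 in ESC replicate 3. At the 28894 other shared regions it was 74.8, 78.5, 80.0 and 75.5. The median pileup at the summit, in tags and not scaled to depth, was 7 at members in MEF against 20 at the other shared regions, and 10 to 13 against 18 to 24 in the ESC libraries. MEF gave the lowest rank of the 4 libraries at 1522 members (61.8%), against 43.6% of the other shared regions, and the highest at 401 members (16.3%), against 33.1% of the other shared regions.

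**Figure D2:**
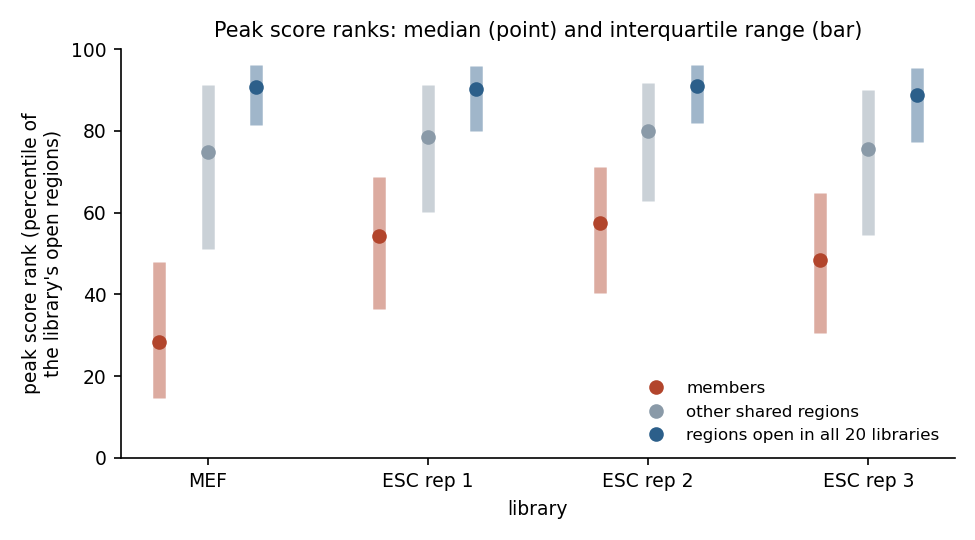
Peak score rank (y axis, percentile among the open regions of a library) in MEF and 3 ESC libraries (x axis). Points are medians and bars the interquartile ranges, and members lay lowest in all 4 libraries, with a median of 28.4 in MEF.

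The lowest of the 4 ranks of a region says how weakly it was detected in its weakest end state. Its median was 19.7 over members, 62.0 over the other shared regions and 85.1 over regions open in all 20 libraries. At 1987 members (80.7%) at least 1 of the 4 peaks had a score under 100, where the lowest score in the files was 50, against 28.3% of the other shared regions. The share of members among shared regions was 27.6% in the lowest decile of this rank, 5.00% in the fifth, 0.0957% in the ninth and 0% in the highest (0 of 3136, which allows up to 0.118% by the exact binomial interval). Where both the MEF rank and the lowest ESC rank were under 25, 354 of 859 shared regions (41.2%) were members. With MEF under 25 and ESC at 75 or more 19.6% were members, with MEF at 75 or more and ESC under 25 5.83%, and with both at 75 or more 0.215% (23 of 10714). The share was lower where the rank in either end state was higher.

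**Figure D3:**
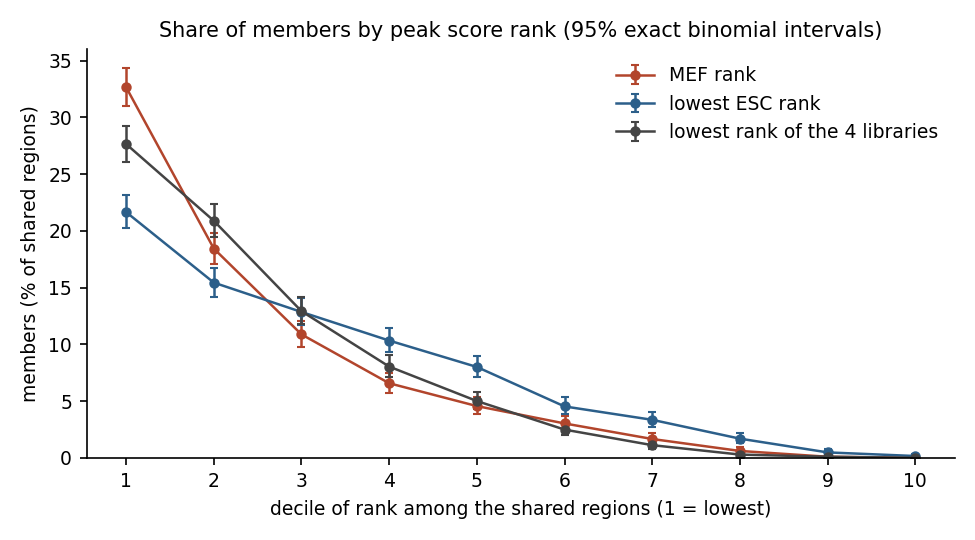
Members as a percent of shared regions (y axis) by decile of the MEF rank, of the lowest ESC rank and of the lowest of all 4 (x axis, 1 is lowest), with 95% exact binomial intervals. By the lowest of all 4, the share ran from 27.6% in decile 1 to 0% in decile 10.

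Whether members recur as open was asked in ESC libraries that had not chosen them. Each ESC library was scored on regions open in MEF and in the other ESC libraries and in at most 2 time-course libraries. ESC replicate 1 was open at 87.5% of 2814 such regions, ESC replicate 2 at 93.6% of 2628 and ESC replicate 3 at 78.8% of 3125, a mean of 86.6% ± 7.48 (SD, n = 3). At regions chosen in the same way but open in 3 or more time-course libraries the mean was 96.9% ± 1.86 (SD, n = 3), and the share was lower at the former in 3 of 3 libraries. When only regions with a rank of at least 50 in MEF and in the ESC libraries not scored were used, a split made after seeing the data, the shares were 99.7% ± 0.553 (SD, n = 3) and 99.9% ± 0.167 (SD, n = 3). No such check could be made for MEF, which had 1 library.

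In the time course, members were mostly closed, as the rule demands, and the peaks that remained were weak, as were most peaks of the members in MEF. In the Nanog path 247 members had a peak on day 0, 67 on day 1, 33 on day 3, 128 on day 5, 154 on day 7, 174 on day 8 and 29 on day 10, and 48 did on day 12. In the NanogN70 path the numbers were 314, 64, 338, 97, 239, 83, 77 and 214. Of the 2306 member peaks in these libraries 1813 (78.6%) had a score under 100. On day 0 the median rank of the member peaks was 29.9 in the Nanog path and 27.1 in the NanogN70 path, at the 247 and 314 members with a peak. It was 28.4 in MEF, over all 2461 members. The median pileup was 7 in all 3, but pileups are not scaled to depth. At the regions open in all 20 libraries it was 16 and 24 on day 0 and 39 in MEF, so equal tags do not show equal strength. The median pileup at member peaks was 5 to 8 tags in 15 time-course libraries and 13 in the NanogN70 day 3 library, whose highest reached 142. That library also had the highest median pileup over the regions open in all 20 libraries, 60 tags where the rest of the time course had 16 to 41, and a peak at all 5 leukocyte promoters checked (Ptprc, Cd3e, Cd3g, Lck and Coro1a), against 2 or 3 of 5 in every other library. The part of either in the member peaks was not tested.

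Among members with any time-course peak, 396 had it in the Nanog path alone, 779 in the NanogN70 path alone and 388 in both. The NanogN70 day 3 library alone had a peak at 338 members. Over all shared regions the libraries of the Nanog path were open at 66.6% to 83.7% and those of the NanogN70 path at 66.3% to 85.3%. The NanogN70 share was higher on day 0 (77.7% against 66.6%) and day 3 (78.8% against 71.4%), but lower on day 1 (66.3% against 68.5%) and day 8 (77.2% against 83.2%). The split by path was not counted over all shared regions, and the part of these library differences in the member counts was not tested. Among the 743 members with 2 peaks the commonest pair was day 0 of both paths, with 102 members, followed by NanogN70 days 3 and 7 with 32. By stage, 360 members had peaks on days 0 and 1 alone, 694 on days 3 to 8 alone, 171 on days 10 and 12 alone and 338 in more than 1 of these stages, which hold 4, 8 and 4 libraries.

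To compare the paths with a measure that did not choose the regions, each time-course library was scored on shared regions open in at most 2 of the other 15. In the Nanog path 15.1% of such regions had a peak on day 0, 5.56% on day 1, 3.65% on day 3, 10.6% on day 5, 12.9% on day 7, 13.9% on day 8 and 3.30% on day 10, and 5.30% did on day 12. In the NanogN70 path the shares were 20.1%, 5.26%, 21.2%, 9.49%, 18.8%, 7.22%, 7.02% and 15.3%. The paths overlapped over most of their range, and both were low on day 1. The mean was 13.1% in the NanogN70 path and 8.80% in the Nanog path, a difference of 4.25 percentage points, higher in NanogN70 on 5 of 8 days, which did not pass a two-sided exact permutation test that flips the sign of each daily difference (p = 0.156, where the smallest p possible was 0.00781). The days are successive samples of 1 culture series per path and not biological replicates. Over all shared regions the NanogN70 share minus the Nanog share was 11.1 percentage points on day 0, 7.41 on day 3 and, lowest of the 8, -5.99 on day 8. With the daily difference over all shared regions subtracted the mean was 1.66 percentage points (exact p = 0.414), and without day 3 of both paths it was 2.29 (exact p = 0.328).

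The stronger members are described by day, from values that the rule used and so with no test. A set of 241 members (9.79%) had a rank of at least 50 in MEF and in all 3 ESC libraries, a limit set after seeing the data, against 61.9% of the other shared regions. Of these, 100 (41.5%) had a peak in a day 0 library, and 16.2% of the 2220 weaker members did. A day 10 or day 12 library had a peak at 47 of the stronger members (19.5%) and at 13.3% of the weaker ones. A day 0 library was the sole place of a remaining peak at 74 of the stronger members (30.7%) and at 10.0% of the weaker ones. No time-course peak was left at 57 of the stronger members (23.7%) and at 37.9% of the weaker ones.

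Scored on held-out shared regions with a lowest rank of at least 50, the Nanog path was open at 40.5% on day 0, at 7.57% on day 1 and at 4.07% to 14.6% from day 3 on. The NanogN70 path was open at 36.4% on day 0, 4.07% on day 1, 14.3% on day 3, 4.0% on day 5, 16% on day 7, 8.76% on day 8, 5.60% on day 10 and 24.4% on day 12. In both paths the day 0 share was the highest of the 8 days. Of the 5 pluripotency promoters, NanogN70 day 12 had a peak at Zfp42 and Dppa5a, which had none in the other 15 time-course libraries, and at Pou5f1 and Tdgf1, which were also open in MEF and in other time-course libraries, but none at Nanog, which was open in MEF. Their part in the day 12 share was not tested. The NanogN70 minus Nanog difference over these regions was 2.62 percentage points (two-sided exact permutation test, p = 0.422).

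**Figure D4:**
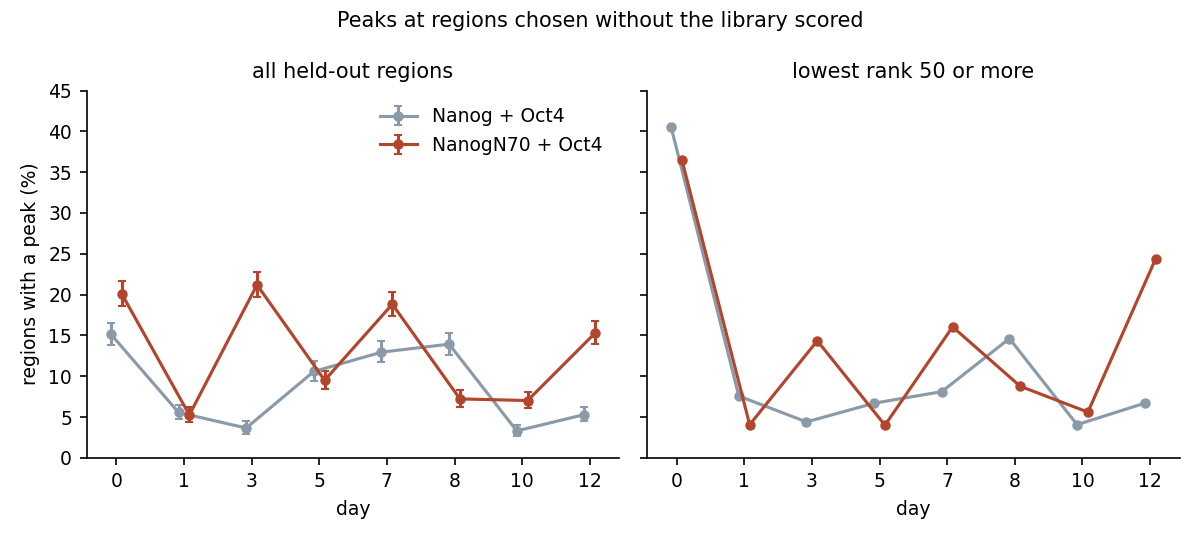
Percent of held-out regions with a peak (y axis) by day (x axis) in the Nanog and NanogN70 paths, 1 library per point, for all such regions (left, with 95% exact binomial intervals) and for those with a lowest rank of 50 or more (right). On the right both paths were highest on day 0, at 40.5% and 36.4%.

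The 20 members with the highest lowest rank, 76.4 to 90.6, all lay over 2 kb from a start site, 12 in introns, 7 between genes and 1 in a UTR. Their pileups were 13 to 48 tags in MEF and 12 to 48 in the ESC libraries, while their time-course peaks had 4 to 17 tags. A day 0 library held a peak at 14 of them, and both day 0 libraries at 9.

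The strongest, chr13:25639572-25640290, lay 370.1 kb from Nrsn1 and had a pileup of 24 in MEF, 26, 33 and 25 in ESC replicates 1, 2 and 3, 5 on day 0 of the Nanog path and 11 on day 0 of the NanogN70 path. In an intron of Wls, the carrier that brings Wnt proteins to the cell surface, chr3:159847454-159847933 had 30 tags in MEF, 26, 41 and 34 in the ESC libraries, and 6 and 9 on day 0. Both had their time-course peaks on day 0 of both paths alone. Pileups are not scaled to depth, and at the regions open in all 20 libraries the median was 39 tags in MEF, 29 to 38 in the ESC libraries and 16 and 24 on day 0 of the Nanog and NanogN70 paths.

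Introns of Pde1a (a calmodulin-dependent phosphodiesterase), Zfhx3 and Nfib (both transcription factors) also had their time-course peaks on day 0 of both paths and nowhere else. So did intergenic sites whose nearest start site was that of Acvr2a (an activin receptor, 1446 kb away), Arrb1 (a beta-arrestin, 16.2 kb) or 1700016C15Rik (10.6 kb). At Psd3, which encodes an exchange factor for the ARF6 GTPase, chr8:67930837-67931312 had 31 tags in MEF and 39, 38 and 29 in the ESC libraries, and its 1 time-course peak, of 7 tags, was on day 12 of the NanogN70 path. An intron of Elp2, a subunit of the Elongator complex, had 16 tags in MEF, 26, 37 and 39 in the ESC libraries and 10 in the same NanogN70 day 12 library. These 2 members had a late peak and none earlier.

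Members with no peak at all in the time course were also found among strong ones. The 6 with the highest lowest rank, a list chosen after their values were seen, were in introns of Oacyl, Pknox2, B3gnt2 and Ptprg and nearest to Armc3 and Snx16. The region in B3gnt2, an enzyme that builds polylactosamine chains, had 17 tags in MEF and 45, 41 and 33 in the ESC libraries (chr11:22799705-22800478). The one in Pknox2, a TALE homeobox gene, had 16 in MEF and 17, 24 and 16 in the ESC libraries (chr9:37106694-37107444). The one in Ptprg, a receptor tyrosine phosphatase, had 10 in MEF and 30, 29 and 18 in the ESC libraries (chr14:11562837-11563236). The gene with the most members in it or within 10 kb was Gm20388, with 8 of 162 shared regions, followed by Ptprg and Etl4 with 5 each, of 8 and 13 shared regions. Across the genome 127 members (5.16%) lay within 10 kb of another member.

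At the edge of the rule the strongest regions are given as examples, with no comparison of the groups on each side. Just outside, with peaks in 3 libraries, the strongest was chr8:62417434-62418365, 294.6 kb from Anxa10, with 28 tags in MEF, 44, 71 and 38 in the ESC libraries, 6 and 9 on day 0 of the Nanog and NanogN70 paths and 9 on NanogN70 day 12. An intron of Kcnt2, a sodium-activated potassium channel gene, had 29 tags in MEF, 67, 96 and 53 in the ESC libraries and 5 to 10 in 3 time-course libraries. Among the strongest just inside, with peaks in 2, were those of Nrsn1 and Acvr2a.

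Few members were promoters. The MEF summit lay within 2 kb of a start site at 261 members (10.6%, 95% exact binomial interval 9.42 to 11.9, for counting error alone), against 47.9% of the other shared regions and 74.0% of the regions open in all 20 libraries. Introns held 1061 members (43.1%) and the space between genes 881 (35.8%). Of ESC-only regions with the same limit on time-course libraries, 7.07% were promoters, 41.0% intronic and 40.7% intergenic, and 4.75% of the corresponding MEF-only regions were promoters. Within the stronger members promoters were 6.64% (16 of 241). The median member lay 34.8 kb from the nearest region open in all 20 libraries, against 32.7 kb for shared regions open in 3 to 15 time-course libraries, 40.8 kb for ESC-only and 85.0 kb for MEF-only regions. The median merged width was 329 bp, which also depends on how many libraries have a peak to merge. The MEF summit and the nearest ESC summit were a median of 12 bp apart, and within 100 bp at 2116 members (86.0%, against 87.0% of the other shared regions). Over the autosomes and chromosome X the share of members among shared regions ran from 5.96% on chromosome 7 to 10.7% on chromosome 6 (193 of 1798), and chromosome Y held 2 members among 7 shared regions.

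The few promoter members with strong peaks belonged to genes of varied function. Slc16a4, of the monocarboxylate transporter family, had a promoter peak of 35 tags in MEF, 22, 17 and 15 in the ESC libraries and 4 on Nanog day 0. S100a16, a calcium-binding protein gene, had 20 in MEF, 12, 13 and 15 in the ESC libraries, 6 on Nanog day 8 and 5 on NanogN70 day 0. Dnajc6, which encodes the clathrin-uncoating factor auxilin, had 9 in MEF, 21, 23 and 21 in the ESC libraries, 4 on Nanog day 5 and 6 on NanogN70 day 3. All 3 were named for their end-state ranks within a set that the rule keeps nearly closed in the time course.
The promoter of AI467606 went the other way, with 10 tags in MEF, 23, 21 and 21 in the ESC libraries, 10 on NanogN70 day 12 and 103 on NanogN70 day 3, the library with peaks at all the leukocyte promoters. A Ctbp2 start site inside the annotated Fgfr2 gene had 19 tags in MEF, 39, 39 and 27 in the ESC libraries and no time-course peak, and Phyhd1, Etl4 and Gprc5c made up the 8.

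Members were poorer in GC and in CpG than the other shared regions. Within 100 bp of the MEF summit the median GC content was 50.7%, against 57.2% at the other shared regions, 62.7% at the regions open in all 20 libraries, 50.7% at ESC-only and 45.8% at MEF-only regions. The median number of CpG dinucleotides was 2 against 7 at the other shared regions and 14 at those open in all 20. Promoters were 10.6% of members, 47.9% of the other shared regions and 74.0% of those open in all 20. GC and CpG were not counted again away from start sites, so the part of promoters in these differences was not tested. Repeats covered at least 50% of the window at 12.1% of members, 2.38% of the other shared regions, 23.4% of ESC-only and 4.96% of MEF-only regions.

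The TEAD word was commoner at members than at the other shared regions, and the order for CTCF turned with the window. CTCF was the word planned as a result, and TEAD was taken up among the searched words after seeing the data. The TEAD word lay within 25 bp of the MEF summit at 200 members (8.13%, 95% exact binomial interval 7.08 to 9.28), against 2.92% (2.73 to 3.12) of the other shared regions, 3.80% of ESC-only and 9.05% of MEF-only regions. The CTCF consensus was found at 157 members (6.38%, 5.45 to 7.42), against 3.94% (3.72 to 4.17) of the other shared regions, but within 100 bp at 14.1% of members and 16.1% of the other shared regions. The AP-1 word was found at 124 (5.04%), against 2.73% of the other shared regions, 1.58% of ESC-only and 14.8% of MEF-only regions. SOX (ACAATG) was found at 2.4% and 1.5%, KLF and SP at 6.46% and 6.28%, and the ETS word CCGGAAGT at 0.122% and 0.942% of members and other shared regions. Other searched words differed as well. RUNX was found at 1.79% and 0.949%, GATA at 1.18% and 0.699%, NFY at 0.894% and 2.02% and CREB at 0.0813% and 0.481%. At the summit of ESC replicate 1 in place of MEF, TEAD was found at 7.11% of members and 2.63% of the other shared regions.

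Because the other shared regions were rich in promoters, the words were counted again over 2 kb from start sites. There TEAD was found at 8.73% of members, at 5.23% of regions open in 3 to 8 time-course libraries, at 3.5% of those in 9 to 15 and at 2.92% of those in all 16. CTCF was found at 6.5%, 8.48%, 7.17% and 3.70% of the same groups, and within 100 bp at 14.7%, 24.3%, 29.9% and 23.6%. Among distal shared regions with a lowest rank of at least 50, TEAD was found at 16.9% of 225 members (12.2 to 22.4), at 9.45% of 603 regions open in 3 to 8 libraries (7.24 to 12.1), at 4.44% of 2839 in 9 to 15 (3.71 to 5.26) and at 2.66% of 3010 in all 16 (2.11 to 3.30). The TEAD share was lower with each step up in the number of open libraries. Over the same 4 groups the AP-1 word was at 6.67%, 8.46%, 3.80% and 2.92%, and the CTCF consensus at 1.78%, 4.15%, 5.92% and 3.49%.

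**Figure D5:**
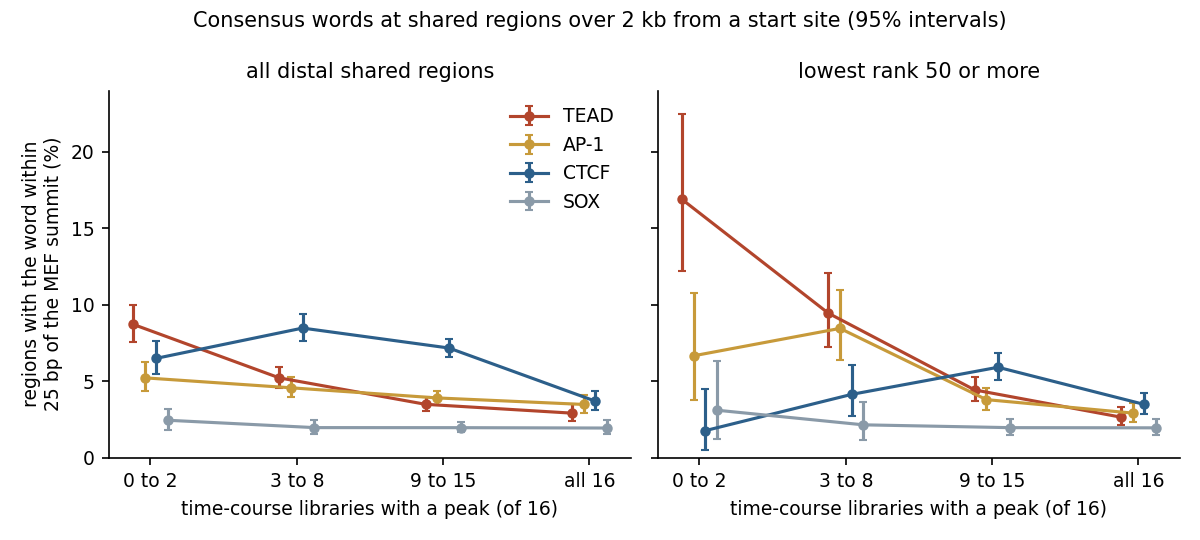
Percent of shared regions over 2 kb from a start site that hold a consensus word within 25 bp of the MEF summit (y axis), by the number of time-course libraries with a peak (x axis, members are 0 to 2), for all such regions (left) and for those with a lowest rank of 50 or more (right), with 95% exact binomial intervals. On the right TEAD ran from 16.9% at members to 2.66% at regions open in all 16.

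The TEAD word was more frequent among stronger members and the CTCF consensus among weaker ones. Among members with a lowest rank under 10 the TEAD word was found at 6.60% and the CTCF consensus at 8.49%, and among those with a lowest rank of at least 50 at 16.2% and 1.66%. At the other distal shared regions TEAD was found at 4.36% with a lowest rank under 10 and at 4.08% with one of at least 50. There CTCF was also lower at the stronger regions, at 8.64% and 4.62%. Members open in both day 0 libraries held TEAD at 17.6% (18 of 102) and CTCF at 0 of 102, which allows up to 3.55% by the exact binomial interval. TEAD was found at 11.5% of members open in no time-course library, at 10.7% of those open on day 0, at 4.35% of those open in later libraries and not on day 0, and at 2.37% of those open in the NanogN70 day 3 library. With 44126 peaks in each library, TEAD was found at 17.1% of the 228 members and CTCF at 1.32%.

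Genes with a member nearby were few in each list, against a background that differed between lists. Of 21911 protein-coding genes, 1942 (8.86%) had a member in the gene or within 10 kb, and 74.5% had any shared region there, against 77.3% to 100% of the genes of the 7 lists. Among pluripotency genes it was 3 of 22 (Sox2, Prdm14 and Nr5a2), among fibroblast genes 2 of 22 (Pdgfra and Zeb2), among AP-1 and immediate early genes 0 of 15 and among cell cycle genes 2 of 20 (Cdk6 and Trp53). It was 4 of 20 among imprinted genes (Igf2, Dlk1, Gnas and Rian), 3 of 24 among genes of BAF and cohesin (Arid1b, Pbrm1 and Rad21) and 5 of 23 among Wnt and FGF signalling genes (Wnt5b, Wnt7b, Tcf7l1, Tcf7l2 and Fgfr2).

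Sox2, a core pluripotency factor, had its member 7.64 kb from its start site, at chr3:34642204-34642910, with 8 tags in MEF, 12, 14 and 10 in the ESC libraries and a time-course peak on NanogN70 day 12 alone. Prdm14, a regulator of naive pluripotency, had an intronic member with 6 tags in MEF, 19, 20 and 17 in the ESC libraries and peaks on day 7 of both paths (chr1:13117800-13118090). Cdk6, a G1 cyclin-dependent kinase, had an intronic member with 6 tags in MEF, 27, 30 and 24 in the ESC libraries and no time-course peak. These 3 were weak in MEF, with ranks of 32.7, 29.2 and 16.7.
Nr5a2, a nuclear receptor, and Tcf7l2, a nuclear effector of Wnt signalling, had members that were stronger in MEF. The Nr5a2 member lay between genes, 109.8 kb from the nearest protein-coding start site. It had 17 tags in MEF and 8, 8 and 7 in the ESC libraries. The intronic Tcf7l2 member had 19 and 6, 7 and 9, with a time-course peak on Nanog day 0. By rank, both were highest in MEF, at 65.8 and 60.9. Pdgfra, a receptor of mesenchymal cells, had a member 3.6 kb from its start site with 13 tags in MEF, 11, 9 and 10 in the ESC libraries and a time-course peak on NanogN70 day 7, and its rank was lowest in MEF, at 17.2 against 45.9, 61.6 and 30.2. Igf2, an imprinted growth factor gene, had a promoter member with 15 tags in MEF, 11, 20 and 10 in the ESC libraries and no time-course peak. The intronic member assigned to Fgfr2, with 21 tags in MEF and 16, 25 and 19 in the ESC libraries, had the highest lowest rank of the listed genes, 73.7. Its assignment rests on a very long annotated body of Fgfr2, which holds 54 of the 118 shared regions of the Wnt and FGF list.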

How the data were processed

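ATAC-seq peaks of 20 libraries were analysed. The authors trimmed reads with Trim Galore 0.6.4, aligned them with Bowtie2 2.4.5 to mm10, filtered them with SAMtools 1.16.1 and called peaks in each library separately with MACS 1.4.2. The score deposited by the authors for each peak is minus 10 times the base-10 logarithm of its p-value, with a minimum of 50. The signal deposited for each summit is its pileup, the coverage in tags, not scaled to depth. No source used here gives read totals, and depth is therefore unknown. A closed call can hide access under the threshold, more so in a shallow library.

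Libraries were grouped by title. Regions, ranks and members were computed from the peak lists in Python 3.11.15 with pandas 2.3.3 and numpy 2.4.6, intervals with scipy 1.17.1 (exact binomial, 95%), and figures with matplotlib 3.10.9. The merging, the rule and the permutation test were tested on simulated peaks. Sequence came from RefSeq GRCm38 and annotation from GENCODE M21. All peaks lay inside GRCm38 chromosome lengths, and 14 sequence names outside the chromosomes were left out of annotation and words. Besides the words spelled out in the report and the 12-letter CTCF consensus, the words searched on both strands were ATGCAAAT for OCT, TCAAGGTCA for ESRRB and NR5A2, TGTGGTT for RUNX, GCGCATGCG for NRF1, CCAATCA for NFY and AGATAA for GATA factors. No word contains another.

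The members and the gene lists were chosen with earlier results of these data known. Regions named were the 20 members with the highest lowest rank, the 8 highest near a protein-coding start site, the 3 highest on each side of the limit and members at listed genes. A region among the first of these is not reported here. The path comparison used a two-sided exact permutation test over 8 days. Alternatives were a minimum score of 100, equal peak numbers, direct overlap of peaks, other limits, fewer libraries or chromosomes, and other windows.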

Additional observations from a re-analysis of the deposited data

How the results depend on the processing

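The number of members depended on how many peaks each library contributed. With equal numbers of top-scoring peaks it was 228 (1.48% of shared regions), with a median lowest rank of 17.8, 7.89% near start sites, CTCF at 1.32%, TEAD at 17.1% and a median GC of 51.2%. With a minimum score of 100 the median lowest rank was 17.4, the share near start sites 14.3% and the median GC 51.2%. In both of these settings ranks were taken among the peaks kept alone. The ranks of 17.8 and 17.4 are therefore not on the scale of the main value of 19.7 and do not compare peak strength with it. With no time-course peak allowed there were 898 members (2.86%), with a median lowest rank of 17.3, 8.02% near start sites and TEAD at 11.5%. With up to 4 allowed there were 3967 (12.7%), with a median lowest rank of 21.4 and 12.6% near start sites. The share of shared regions was 7.24% where peaks had to share 50% of the shorter peak, and 8.59% without NanogN70 day 3. Leaving out each ESC replicate in turn gave shares of 8.21% to 9.30%. A start-site window of 500 bp gave 5.24%, and a word window of 100 bp gave CTCF at 14.1% and TEAD at 24.5%. At members with a lowest rank of 50 or more, a choice made after seeing the data, 6.64% lay near start sites, CTCF was at 1.66%, TEAD at 16.2% and the median GC was 51.2%. The held-out ESC share was 99.7% over held-out regions with such a rank. The path difference stayed positive and did not pass the test under any alternative run (2.35 to 5.82 percentage points without each day in turn). Apart from the comparison of the paths, which pairs them by day, no analysis paired by replicate number was possible because the ESC numbers have no counterpart in the other groups, which have 1 library each. The unknown depth limits what the absence of a peak can show.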
